A study of Mus musculus with 2 samples.

Results

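Surface and secreted proteins by which adipose progenitors are recognised were followed as 10 genes: Pdgfra, Thy1, Ly6a, Dpp4, Pi16, Cd24a, Cd55, Sema3c, Icam1 and Vcam1. They were chosen by symbol, and their probes were found through the RefSeq transcript given for each spot. All 10 were among the 20884 genes that could be named on the array, on 12 distinct probes; 8 genes had 1 probe, and Sema3c and Vcam1 had several. Most members are surface or secreted proteins, and none is a structural gene of the fibrillar matrix, so they are called progenitor markers here.

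The study compared 2 cultures from the epididymal fat of male C57/BL mice. After collagenase digestion, the cells that floated in a brief slow spin but sedimented in a faster one are the small proliferative adipocytes, and those that did not float in the slow spin are the stromal vascular cells. Both were grown to 90% confluency, given insulin, dexamethasone and IBMX, the usual adipogenic mixture, for 3 days and kept for 2 further days without it; the products are called SPAD and SVCD. Each population was read on 1 single-colour Agilent array, labelled with Cy3 from 30 ng of RNA. The labels do not say how many mice or cultures stood behind each RNA. With 1 array per group no difference could be set against the spread between replicates, and no test was run.

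Adipose progenitors are fibroblast-like cells of the stroma that divide, commit and fill with lipid. They are usually sorted by the receptor PDGFRα together with the surface proteins Sca-1 (gene Ly6a) and CD24. In the fat of mice, cells of the interstitium marked by DPP4, PI16, CD55 and SEMA3C have been placed upstream of ICAM1-marked preadipocytes, while VCAM1 and ICAM1 also serve as docking sites for leukocytes on endothelium, mesothelium and stroma. By the sample titles and protocol both cultures had been through adipogenic induction, although the description fields name the populations without the word differentiated. The levels below are therefore read as those of differentiated cultures that can still hold undifferentiated cells. In such bulk samples, fewer cells of a type and less RNA per cell cannot be told apart.

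Of the 10 genes, 9 were well above background on both arrays, and Dpp4 was so on neither. At a threshold of 2-fold, Thy1, Pi16, Sema3c and Ly6a were higher in SPAD and Vcam1, Icam1 and Cd55 lower, while Pdgfra and Cd24a differed by less. Thus 4 of 9 were higher and 3 of 9 lower. Among all 15625 genes well above background on at least 1 array, 16.3% lay on the higher side of this threshold and 14.1% on the lower side. The members, picked by hand with earlier results of these data known, had larger shares than both backgrounds in the main values, but with spike-in scaling 4 of 9 were lower beside 44.8% of all genes. Their median log2 difference was 0.61, against 0.06 for all those genes. The members thus split to both sides, with a range from -3.60 (Vcam1) to 3.12 (Thy1).

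Signals are given as processed intensity before scaling, and log2 differences (SPAD minus SVCD) after each array was set to its 75th percentile, an intensity of 622 for SPAD and 678 for SVCD. The error after ± is that of the log2 difference. It adds, as squares, the SD between repeat spots of like signal on each array, taken from probes printed 10 times. Each squared SD is divided by the gene's own number of spots, so probes printed 10 times have a smaller error. This error covers neither labelling nor culture. The scanner software's own error model was wider for the brighter probes. Over the 11 detected marker probes its SD of a log2 difference was between 0.20 and 0.27, against 0.03 to 0.49 for the error from repeat spots.

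**Figure D1:**
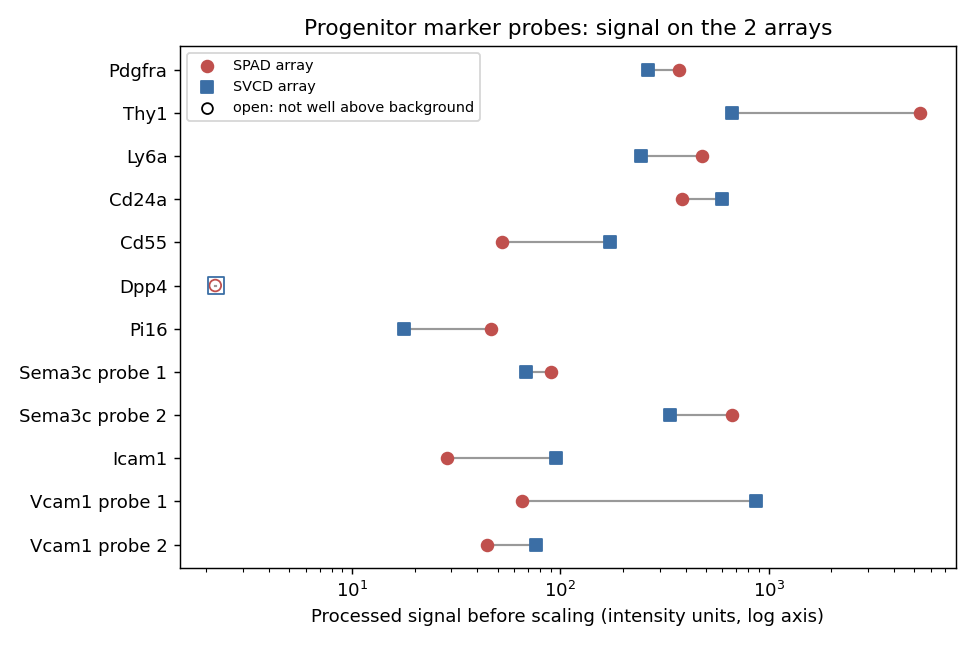
Processed signal of each progenitor marker probe (log axis, intensity units before scaling) for SPAD (circles) and SVCD (squares), with a line joining the values of a probe; open symbols are not well above background. Thy1 reached 5344 for SPAD and 669 for SVCD, Vcam1 probe 1 had 65.9 and 874, and both Dpp4 symbols lie at about 2.2.

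The stretches before the transcription start of 4 members are shown because these genes differed at least 2-fold and in opposite directions: Icam1 and Cd55 were lower in SPAD, Pi16 and Sema3c higher. The RefSeq promoter table (build GRCm38.p6) held 6 of the 10 members. Each sequence is the 250 bases before the start, 5′ to 3′ on the gene's strand. Capitals mark matches, on either strand, to GGNNNTTCC, a core shared by many NF-κB sites, or to GGGCGG, the GC box bound by Sp factors.
Icam1 (chr9:21015690-21015939, plus strand): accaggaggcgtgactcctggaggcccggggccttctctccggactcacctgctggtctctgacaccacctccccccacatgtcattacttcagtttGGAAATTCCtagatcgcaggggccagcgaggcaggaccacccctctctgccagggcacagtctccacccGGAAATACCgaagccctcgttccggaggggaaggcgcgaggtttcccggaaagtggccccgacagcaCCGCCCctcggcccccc
Cd55 (chr1:130462745-130462994, minus strand): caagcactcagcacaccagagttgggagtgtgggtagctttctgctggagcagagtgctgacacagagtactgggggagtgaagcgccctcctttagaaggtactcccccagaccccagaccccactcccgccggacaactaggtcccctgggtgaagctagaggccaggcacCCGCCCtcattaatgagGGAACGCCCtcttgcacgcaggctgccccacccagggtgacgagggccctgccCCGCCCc
Pi16 (chr17:29318632-29318881, plus strand): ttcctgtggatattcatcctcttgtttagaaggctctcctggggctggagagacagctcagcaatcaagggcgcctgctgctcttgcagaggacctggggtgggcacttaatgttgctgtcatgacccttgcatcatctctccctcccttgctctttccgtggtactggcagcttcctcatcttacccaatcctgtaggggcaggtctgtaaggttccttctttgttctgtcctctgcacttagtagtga
Sema3c (chr5:17574566-17574815, plus strand): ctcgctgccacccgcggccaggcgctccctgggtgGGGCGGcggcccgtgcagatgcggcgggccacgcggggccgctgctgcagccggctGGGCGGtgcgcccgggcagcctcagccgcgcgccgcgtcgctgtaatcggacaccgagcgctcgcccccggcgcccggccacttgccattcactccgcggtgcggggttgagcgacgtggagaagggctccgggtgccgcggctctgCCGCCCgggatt

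The Icam1 stretch held GGAAATTCC, which matches GGNNNTTCC on both strands, 153 to 145 bases before the start, and GGAAATACC at 84 to 76 bases. The Cd55 stretch held 1 match, GGAACGCCC, at 60 to 52 bases. Neither Pi16 nor Sema3c had one, nor did the stretches of Pdgfra and Dpp4. Of all 32851 stretches of this length in the table, 15.7% had a match. GC boxes stood in Cd55, Icam1 and Sema3c and in 32.7% of all stretches. Sema3c had 39 CpG pairs and a GC content of 78.4%, against 2 pairs and 52.4% for Pi16, so the 2 higher genes did not resemble each other in base composition. These matches describe letters only; no binding was measured.

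Pdgfra encodes a receptor of platelet-derived growth factors, and its protein is the most widely used tag of fat progenitors. Its probe was printed 10 times on each array. On the SPAD array the 8 spots used had signals between 359 and 398 with a median of 365, and 2 further spots were marked as outliers and left out. On the SVCD array the 10 spots lay between 255 and 272, with a median of 266. The spots of the arrays did not overlap in raw signal. Repeat spots show only the spread within an array, not that between cultures, and other probes printed 10 times were not compared for this. The log2 difference was 0.61 ± 0.03 (1.53-fold higher in SPAD), under 2-fold, and it turned to -0.36 when arrays were scaled to their spike-in controls instead. Pdgfra transcript was thus detected in both differentiated cultures.

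The partners of the receptor lay mostly on the other side. Of 5 genes, the PDGF ligands and the second receptor Pdgfrb, 3 were at least 2-fold lower in SPAD and none higher. Pdgfc had a signal of 156 in SPAD and 819 in SVCD (log2 difference -2.27 ± 0.10). Pdgfa had 5408 and 15648 (-1.41 ± 0.08), with -1.43 on its other probe. Pdgfb, the ligand of endothelial cells and platelets, differed by -1.20 on its brighter probe but by -0.06 on another, so this gene's difference depends on the probe. Pdgfd differed by 0.71 ± 0.49 and Pdgfrb, named here after its value was seen, by 0.56 ± 0.09; both fell below 0 with spike-in scaling. In the main values both receptor genes thus had the opposite sign to 3 of the ligand genes and the same sign as Pdgfd. With spike-in scaling Pdgfra and all 5 of these genes were below 0.

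Thy1, Ly6a, Cd24a and Cd55 encode small proteins held in the membrane by a lipid anchor, and they did not go one way. Thy1 (CD90), a surface glycoprotein of fibroblasts, T cells and neurons, had a signal of 5344 in SPAD and 669 in SVCD. The log2 difference was 3.12 ± 0.08 (8.72-fold higher), the largest upward difference of the 9 genes. It stayed at 2.15 or above under every way of processing tried.

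Ly6a encodes Sca-1, the antigen used with PDGFRα to sort progenitors. Its signal was 479 in SPAD and 245 in SVCD, a log2 difference of 1.09 ± 0.09 (2.13-fold higher). That is within 1 error-model SD (0.20) of the 2-fold line. It lay under 2-fold with normexp background correction (0.96) and with spike-in scaling (0.12).

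Cd24a encodes CD24, a heavily glycosylated surface protein that marks early progenitors and is lost as they commit. Its signal was 386 in SPAD and 599 in SVCD. The log2 difference was -0.51 ± 0.09, under 2-fold, and -1.48 with spike-in scaling. Cd24a was thus lower in SPAD by a modest amount while the other 2 markers of the classical sort, Pdgfra and Ly6a, were higher in the main values.

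Cd55 encodes decay-accelerating factor, which takes apart the complement convertases on a cell's own surface. Its signal was 52.5 in SPAD and 173 in SVCD. The log2 difference was -1.59 ± 0.34 (3.01-fold lower), and -0.98 with normexp, which falls just short of 2-fold. Its paralog Cd55b went the other way, with a signal of 159 in SPAD and 102 in SVCD (0.76 ± 0.13, and 1.01 on another probe). Whether a probe of either gene also binds the other was not tested.

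**Figure D2:**
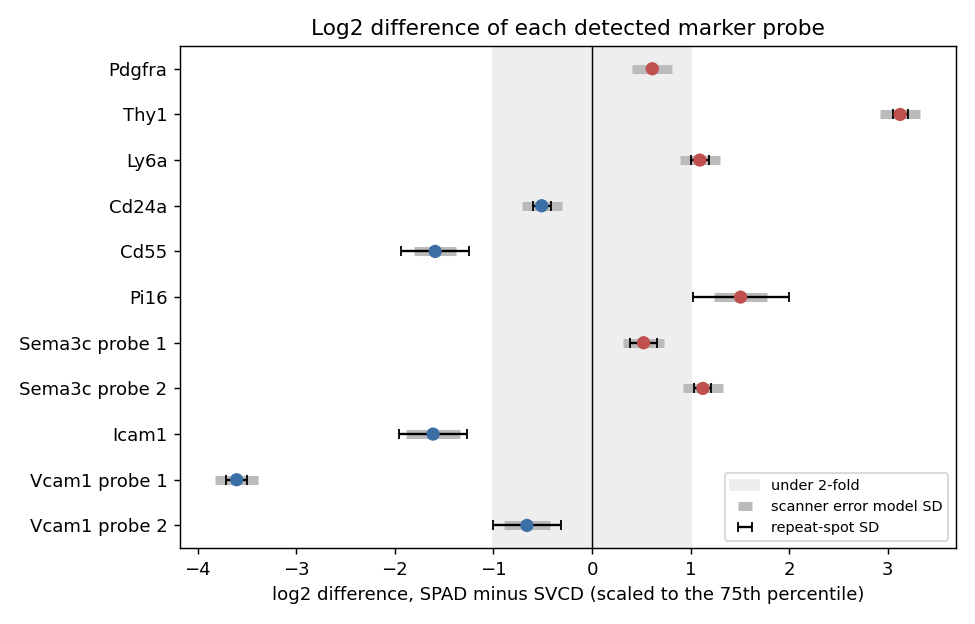
Log2 difference (SPAD minus SVCD, arrays scaled to the 75th percentile) of the 11 progenitor marker probes well above background. Thin black bars (repeat-spot SD) are the error of the difference from repeat spots. Thick grey bars are the SD of the scanner's error model, and the shaded band is under 2-fold. Thy1 stands at 3.12, Vcam1 probe 1 at -3.60 and Vcam1 probe 2 at -0.66, and Ly6a and Sema3c probe 2 lie just above 1; with spike-in scaling Pdgfra and Sema3c probe 1 turn negative.

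Relatives of these surface genes were read from lists of their families. In the Ly6 family, 1 of 5 detected genes was at least 2-fold higher and none lower. That gene, Ly6k, had a signal of 247 in SPAD and 65.1 in SVCD (log2 difference 2.05 ± 0.12). Ly6c1, a close neighbour of Ly6a in sequence, had 0.67 on its brighter probe and -0.66 on another, Ly6e -0.27 ± 0.08 and Ly6h, a dim gene, 0.55 ± 0.49. Among 6 detected regulators of complement, 1 was higher and 2 lower. Serping1, the C1 inhibitor, differed by 1.82 ± 0.09, and Cd59a, which blocks the membrane attack complex, by -1.56 ± 0.09. With spike-in scaling the count of complement regulators became 0 higher and 4 lower.

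Dpp4, Pi16 and Sema3c make an exopeptidase and 2 largely secreted proteins of interstitial progenitors. Dpp4 (CD26) cuts dipeptides from chemokines and incretins. Its probe gave 2.21 for SPAD and 2.23 for SVCD, which is not well above background on either, so no direction can be given. Only a single Dpp4 probe was present under the rule, and its performance on Dpp4-expressing cells was not tested.

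Pi16, a secreted peptidase inhibitor-like protein of fibroblasts, was dim on both arrays, with a signal of 46.5 in SPAD and 17.9 in SVCD. The log2 difference was 1.51 ± 0.49 (2.84-fold higher), and its lower error limit lies close to 2-fold. It fell to 0.61 with normexp and 0.54 with spike-in scaling. Pi16 was therefore the least precisely measured of the higher genes.

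Sema3c encodes a secreted semaphorin, a family known from axon and vessel guidance. Its brighter probe had a signal of 671 in SPAD and 336 in SVCD, a log2 difference of 1.12 ± 0.09 (2.18-fold higher). The dimmer probe had 90.4 and 68.7, a difference of 0.52 ± 0.13. Both probes were higher in SPAD in the main values, but the mean of both (0.82) was under 2-fold. With spike-in scaling they gave 0.15 and -0.45.

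The receptors of class 3 semaphorins were mostly on the lower side. Of 7 detected neuropilin and plexin genes, 3 were at least 2-fold lower in SPAD and 1 higher. Nrp1 had a signal of 155 in SPAD and 634 in SVCD (log2 difference -1.90 ± 0.11). Nrp2 had 4029 and 16029 (-1.87 ± 0.08, and -2.10 on another probe), and Plxna4 differed by -1.30 ± 0.09. Plxna2 was the gene on the higher side, at 1.11 ± 0.09, or 0.14 with spike-in scaling. The ligand gene and both neuropilin genes hence differed in opposite directions.

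Among 9 detected peptidases related to Dpp4 and relatives of Pi16, 1 was higher and 3 were lower. Fap, the fibroblast activation protein and nearest relative of Dpp4, had a signal of 208 in SPAD and 80.6 in SVCD (1.50 ± 0.12). The 3 lower genes belong to the family of cysteine-rich secretory proteins that includes Pi16. Crispld2 differed by -3.27 ± 0.09 (-2.41 on another probe), Glipr1 by -2.37 ± 0.08 and Glipr2 by -1.28 ± 0.11. Thus Pi16 had the opposite sign to these 3 relatives, which are named for the size of their differences. The other 5 detected genes, relatives of Dpp4, lay under 2-fold. With spike-in scaling neither Fap nor Pi16 reached 2-fold.

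Icam1 and Vcam1 encode adhesion molecules of the immunoglobulin family that hold leukocytes through integrins, and both were lower in SPAD. Icam1 had a signal of 28.7 in SPAD and 95.7 in SVCD. The log2 difference was -1.61 ± 0.34 (3.06-fold lower), and -0.59 with normexp. Vcam1 had 65.9 in SPAD and 874 in SVCD on its brighter probe, a difference of -3.60 ± 0.10 (12.2-fold lower). Its other probe, annotated to the same transcript, had 44.3 and 76.4, a difference of -0.66 ± 0.34 (1.58-fold lower). The Vcam1 probes agree in sign but are 2.94 log2 units apart, so the size of the Vcam1 difference is not settled. The positions of these probes within the transcript were not used here.

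The integrin genes for Icam1 and Vcam1 were below 0 as well. Of 8 integrin subunits that pair with these ligands, 4 were at least 2-fold lower and none higher, and all 8 were below 0 in each of the 9 ways of processing. Itga4, whose product forms the main receptor of VCAM1, had a signal of 73.2 in SPAD and 1415 in SVCD (-4.15 ± 0.11, and -2.17 on another probe). Itga9 differed by -1.32 ± 0.11. Of the leukocyte subunits that bind ICAM1, Itgax differed by -3.74 ± 0.09 and Itgal by -1.99 ± 0.11, with -3.87 on its other probe. Itgam and Itgb2, named after their values were seen, were under 2-fold in the main values. Itgam differed by -0.86 ± 0.08, with larger downward differences on its other probes. Itgb2 had 7679 in SPAD and 10929 in SVCD (-0.38 ± 0.08). These leukocyte subunits are made by macrophages and lymphocytes rather than by fat cells.

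Other adhesion molecules were mixed. Of 9 detected, 4 passed 2-fold upward in SPAD and none downward in the main values, but 1 higher and 3 lower with spike-in scaling. Pecam1, an endothelial junction protein, had 344 in SPAD and 92.6 in SVCD (2.02 ± 0.12), Bcam differed by 1.33 ± 0.13, Jam3 by 1.09 ± 0.09 and Jam2 by 1.01 ± 0.09 (0.24 on another probe). The genes below 0 in the main values, named after their values were seen, were Selp (-0.70), Icam4 (-0.45) and Icam2 (-0.12), all under 2-fold. The NF-κB target genes, a group that is known to include Icam1 and Vcam1, were mixed, with 1 of 14 detected higher and 3 lower. Ccl2, which attracts monocytes, had 544 in SPAD and 50454 in SVCD (-6.41 ± 0.03). Tnfaip3, a feedback inhibitor of NF-κB, differed by -2.38 ± 0.09 and the dim chemokine gene Cxcl10 by -1.24 ± 0.49, whereas the neutrophil chemokine gene Cxcl1 was higher (1.48 ± 0.12). The remaining 10 lay under 2-fold, and the list's median was -0.20. With spike-in scaling 0 of 14 were higher and 8 lower, beside 44.8% of all genes lower, and the median was -1.17.

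Further markers of the progenitor states that these genes define were read beside them. Of 9 detected genes of the Dpp4-type interstitial progenitor, 4 were higher and 1 lower, with a median log2 difference of 0.67 that turned to -0.30 with spike-in scaling. Ackr3, a scavenging chemokine receptor, had 847 in SPAD and 37.8 in SVCD (4.61 ± 0.37). Mfap5, a microfibril protein, differed by 2.14 ± 0.08, and Bmp7, above background in SPAD only, had a bound of at least 3.63-fold higher. Bmp7 and the fourth higher gene, Wnt2 (1.04 ± 0.49, named after its value was seen), were dim. Anxa3 was lower (-1.07 ± 0.08).

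Markers of the committed preadipocyte that Icam1 represents had 3 of 8 genes higher and 2 lower, or 1 higher and 4 lower with spike-in scaling. Pparg, the master regulator of fat cells, had 1587 in SPAD and 440 in SVCD (1.98 ± 0.03), and the fatty acid carrier Fabp4 differed by 1.92 ± 0.08, whereas the lipase gene Lpl was lower (-2.77 ± 0.08, and -2.91 on another probe). The dim Ggt5 differed by 1.42 ± 0.49. Fabp4 is also counted in the mature adipocyte list, and both cultures had been induced, so these values cannot be read as a preadipocyte state alone. In the F3-type regulatory cell list, 2 of 6 detected genes were higher and 4 lower. Fmo2 differed by 3.27 ± 0.37 and Igfbp3 by 1.17 ± 0.12, against -2.46 ± 0.09 for Abcg1, a sterol exporter, and -1.56 ± 0.08 for Mgp, an inhibitor of calcification. None of these lists was thus uniformly higher or lower, as the genes of each list stood on both sides.

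General mesenchymal surface markers were mostly under 2-fold apart (7 of 10). Cd44, the hyaluronan receptor, was lower, with 1297 in SPAD and 8440 in SVCD (-2.58 ± 0.08), and its other 3 probes had the same sign. Cd47 (1.59 ± 0.08) and Cd81 (1.24 ± 0.08) were higher and Cd38 differed by -0.99 ± 0.08. With spike-in scaling 0 of these 10 were higher and 5 lower. Stromal matrix genes had 4 of 14 higher and 1 lower, with a median of 0.49 that was -0.48 with spike-in scaling. Postn differed by 2.53 ± 0.08 and Dcn, decorin, by 1.87 ± 0.08, Dpt, above background in SPAD only, had a bound of at least 2.57-fold higher, and Col1a2 was lower (-1.18 ± 0.08).

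**Figure D3:**
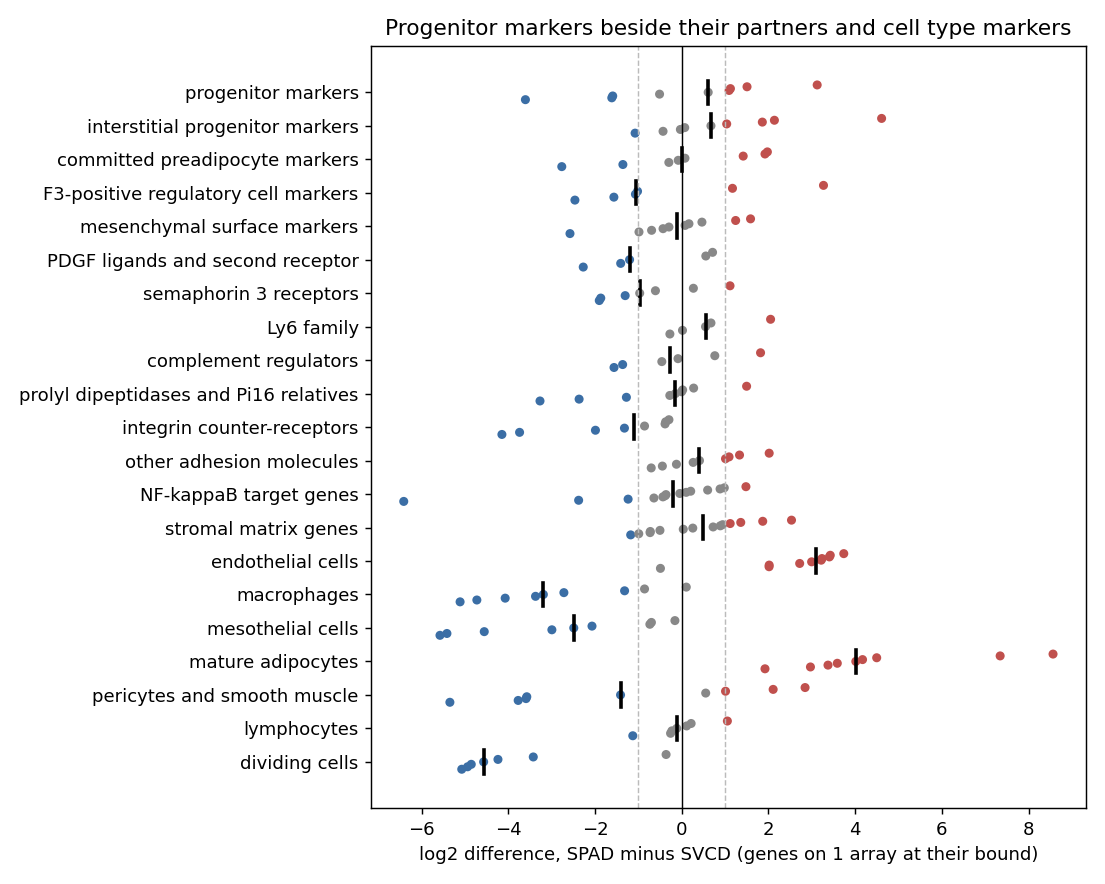
Log2 difference (SPAD minus SVCD, genes detected on 1 array at their bound) of each detected gene of the progenitor markers, of 13 lists of partners and relatives and of 7 cell type lists; points at least 2-fold higher are red, at least 2-fold lower blue, others grey, and the black bar is the median. Progenitor markers spread to both sides of 0 (median 0.61), while mature adipocyte genes all lie above 1 and 8 of 9 macrophage genes below 0; spike-in scaling lowers points measured on both arrays by 0.97.

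Markers of other cell types also differed between the arrays, to both sides, and their part in the members' differences was not tested. Macrophage genes, which matter beside Icam1, Vcam1 and the integrins, had 7 of 9 detected at least 2-fold lower in SPAD and none higher. Their summed signal was 28314 in SPAD and 157696 in SVCD, and Csf1r, the defining receptor, stood at 3185 and 58410. Of the 9 macrophage genes, 8 were detected on both arrays and Fcgr1 in SVCD only. A gene detected on 1 array could only be counted toward that array. Mesothelial genes, which matter beside Vcam1, had 6 of 9 lower and a sum of 1275 against 11821, with Krt18 at 137 and 6373. Only 5 of these 9 were detected on both arrays. Lrrn4, Upk1b and Cdh1, counted as lower at their bound, were detected in SVCD only, as was Upk3b, under 2-fold. Pericyte and smooth muscle genes, a further source of Thy1 and Vcam1, had 3 of 9 higher and 5 lower and a sum of 16190 against 213630. Most of that sum came from Acta2 (5033 in SPAD, 74973 in SVCD) and Tagln (9857 and 129539). Among genes named after their values were seen, Rgs5 (2.85), Notch3 (2.11) and the dim Abcc9 (1.01) were higher and Cspg4 (-1.41) was lower. Genes of dividing cells, 6 of 7 of them lower, summed to 949 and 17829.

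The endothelial list, which matters beside Ly6a, Icam1 and Vcam1, was mostly higher in SPAD. Of 10 genes, 9 passed 2-fold upward in SPAD, with a sum of 21238 against 5479, and Sox17 at 596 and 48.7. The remaining gene, Kdr, named after its value was seen, had 2090 in SPAD and 3202 in SVCD (-0.49 ± 0.08, and -1.94 on another probe). Lymphocyte genes, which matter beside Thy1, had 1 of 7 detected higher and 1 lower. Of these 7, 5 were detected on both arrays, and the higher gene, the dim Cd79a, in SPAD only. Cd3e had 625 in SPAD and 815 in SVCD, and Cd3g and Ms4a1 were among the listed genes well above background on neither array. All 9 detected mature adipocyte genes passed 2-fold upward in SPAD, with Plin1 at 479 and 29.0, and Lep was detected on neither array. With spike-in scaling 8 of 9 did so. Of these 9 adipocyte genes, 8 were detected on both arrays and Pck1 in SPAD only. Cidec, named after its values were seen, had 3.59 on its brighter probe but -0.00 on another. Members and the lists read beside them thus did not always share a direction. With 1 difference per gene, a shared or opposite sign cannot tell which cells a member's RNA came from, and this was not tested. Ly6a was higher, as were most endothelial genes. Icam1 and Vcam1 were lower, as were most macrophage and mesothelial genes, while most endothelial genes were higher. Thy1 was higher. In the pericyte and smooth muscle list Rgs5, Notch3 and the dim Abcc9 were higher too, and Cnn1, Acta2, Tagln, Des and Cspg4 were lower. Of Pdgfra, Thy1, Ly6a, Icam1 and Vcam1, only Pdgfra reversed with spike-in scaling.

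Scaling sets where 0 lies. With the spike-in controls as the reference, the median log2 difference of all detected genes moved from 0.06 to -0.90, and the shares of genes past 2-fold upward and downward went from 16.3% and 14.1% to 5.64% and 44.8%. This scaling shifts every gene measured on both arrays by the same amount, so it cannot change the members' order. Normexp background correction can, and relative to the median of all genes it took Pi16 from 1.45 to 0.55, Icam1 from -1.67 to -0.66 and Vcam1 from -3.66 to -2.65. The differences in the authors' deposited table of log2 values equal the scaled scanner differences up to a constant, so that table is no independent check.

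**Figure D4:**
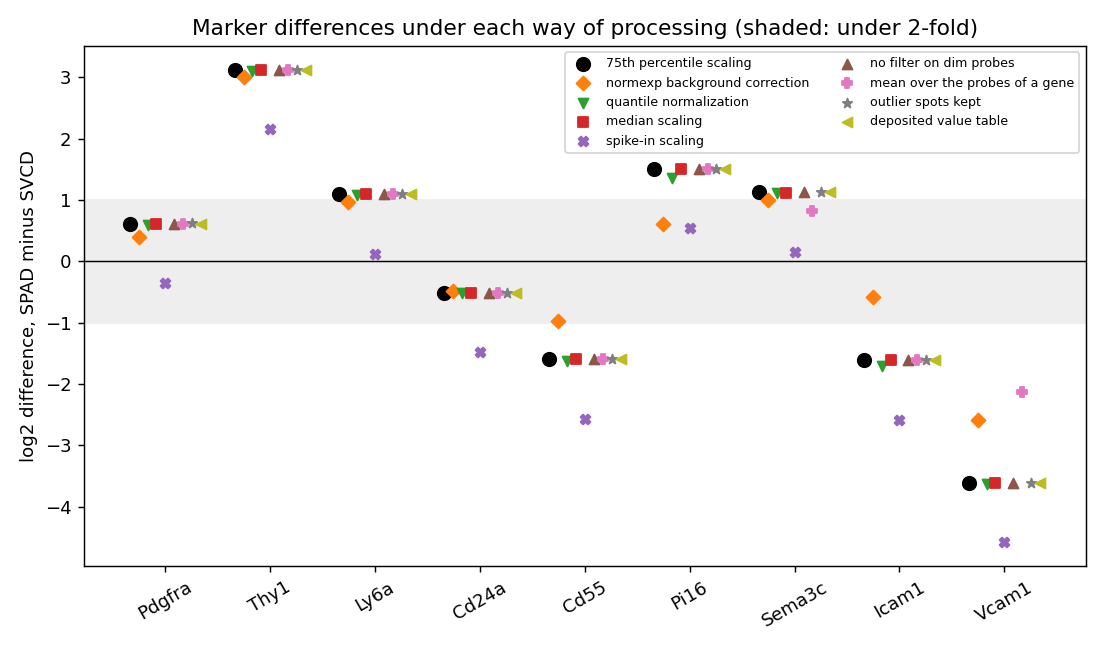
Log2 difference (SPAD minus SVCD) of the 9 detected progenitor markers under 9 ways of processing, each with its own symbol; the shaded band is under 2-fold. Thy1 stays above 2 and Vcam1 below -2 throughout, Pdgfra is the 1 gene that changes sign (-0.36 with spike-in scaling), and Ly6a, Pi16, Sema3c, Cd55 and Icam1 enter the shaded band in at least 1 setting.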

How the data were processed

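RNA of SPAD and SVCD was read on 1 single-colour Agilent array each. Per the submitters' processing notes, the scanner software was Agilent Feature Extraction 10.7.3.1. The deposited intensity is background-subtracted but not scaled between arrays, per the file headers. A table of log2 values, also deposited, was centred per probe over both arrays, so only the difference can be read; its offset from the scaled scanner difference was constant. The authors' scaling is unknown; the column medians were 0.16 (SPAD) and -0.16 (SVCD).

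Of 44397 spots per array, 1377 controls were left out, as were 73 (SPAD) and 85 (SVCD) outlier spots; no other spot was saturated. Log2 intensity of repeat spots was averaged (39425 probes) and the array's 75th percentile subtracted. Probes were named through RefSeq transcripts without versions (GRCm38.p6 table): 27506 probes (69.8%) matched 20884 genes. The probe brightest on average over both arrays stands for a gene; all member probes are shown. Signals well above background covered 64.5% (SPAD) and 65.6% (SVCD) of probes. A gene detected on 1 array is given as a bound ("at least N-fold"), taken against the dim array's lowest well-above-background signal, or the dim probe's value where that is higher.

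With 1 array per group no p-value is given. Repeat-spot SD came from the detected ones (292 for SPAD, 295 for SVCD) among 399 probes printed 10 times, in 6 bins of signal on each array; both arrays' errors were added as squares and divided by the number of spots. Members and lists were chosen with earlier results of these data known. All members are named, and of each other list up to 4 detected genes with the largest absolute difference; a few genes are not reported here. Other alternatives were normexp (limma 3.58.1, offset 50, on median spot and background signals, as no mean spot signal was given), quantile, median and spike-in scaling (8 spike-in probes), no filter on dim probes, the mean of a gene's probes, outliers kept and the deposited table. The steps were tested on simulated data. Cross-binding of near-identical genes was not tested.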

Additional observations from a re-analysis of the deposited data

How the results depend on the processing

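Of the 4 higher and 3 lower progenitor markers, the counts were the same with quantile normalization, median scaling, no filter on dim probes, outlier spots kept and the deposited table. With the mean of a gene's probes 3 were higher and 3 lower. With normexp 2 of 9 were higher and 1 of 9 lower, beside 9.49% and 9.15% of all genes, so the share on the lower side was near the background, and the median of the detected members was 0.40 in place of 0.61; normexp with its offset shrinks differences of dim genes, and Pi16, Cd55 and Icam1 were the dimmest of the 7. With spike-in scaling 1 was higher and 4 lower, and the median reversed to -0.36, which is the value of Pdgfra, the only member that reversed (-0.36); the whole array moves down under this scaling, and why the spike-ins differ was not tested. Without a filter on dim probes the undetected Dpp4 entered and the median was 0.36. Most alternatives could hardly move the members: median scaling and the deposited table are near-constant shifts, no member detected had an unfiltered value that differed, and outlier spots were found for Pdgfra only. Of the settings that can move every member (normexp, quantile and spike-in), Thy1 and Vcam1 were past 2-fold in each, Cd55 and Icam1 not with normexp, Ly6a and Pi16 with quantile only, and Sema3c not with spike-in scaling. With 1 array per group no replicate could be left out. No paired analysis was possible because each group has 1 array. Signal over background limits Pi16, Icam1, Cd55 and the dimmer Vcam1 probe most, and Dpp4 could not be read.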

Other observations

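Cd34, a surface glycoprotein of adipose progenitors and endothelial cells, was examined after its values were seen because its probes disagreed. The probe with the higher mean signal had 341 in SPAD and 501 in SVCD, a log2 difference of -0.43 ± 0.09, whereas its other probe differed by 2.43. The disagreement is of the same order as that of the Vcam1 probes (2.94 log2 units), and its cause was not tested. Dlk1, a brake on preadipocyte differentiation, likewise gave -1.36 ± 0.34 on its brighter probe and -0.66 on another, both below 0.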
